A study of Homo sapiens with 7 samples.

Results

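Sites of the vitamin D receptor (VDR) were examined at 4 genes that move calcium across membranes: SLC24A4 and SLC8A1, which exchange calcium for sodium, ATP2B1, which pumps it out of the cell, and ITPR2, which releases it from internal stores. Every listed peak that overlapped a gene body or the 50 kb on either side of it was taken, in hg19. These windows held 97 of the 89218 peaks in the 6 lists, and after peaks sharing at least 1 bp were merged they held 74 of 77132 sites. The genes were chosen by what earlier work on these same lists had shown, that is by the position, fold and treatment of the peaks near them. The values are therefore descriptions and no test was made.

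The cells were THP-1, a human line from an acute monocytic leukaemia. They received 100 nM 1α,25-dihydroxyvitamin D3 (1,25D) or the solvent, 0.1% ethanol (EtOH), for 8 h. VDR-bound DNA was then pulled down with an antibody and tagged for sequencing by a transposase while still on the beads (ChIPmentation), with 3 libraries per treatment. The labels do not say whether replicates came from separate cultures, so the spread between lists may be technical.

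Resting cells keep free calcium in the cytosol far below the level outside and in the endoplasmic reticulum. Plasma membrane calcium pumps and sodium/calcium exchangers push it out, and inositol trisphosphate receptors let it out of the endoplasmic reticulum when a surface receptor is stimulated. 1,25D is best known as the hormone of calcium balance, and in the intestine it raises calcium uptake, where the pump encoded by ATP2B1 passes calcium on to the blood. VDR binds its ligand and DNA, usually as a heterodimer with the retinoid X receptor, and in monocytes it acts on many genes outside calcium transport.

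Each list gives a fold enrichment per peak, which is the authors' own value over a background that their peak caller computed, and a p-value. Whether that background came from the input library is not given in the labels or headers. Read counts are not given, so the depth behind a peak is unknown, and a missing peak means only that none passed the caller's threshold. Lists ran to 15262, 3647 and 8620 entries in 1,25D replicates 1 to 3 and to 15974, 33820 and 11895 in EtOH replicates 1 to 3. The copies analysed break off in mid-line in 3 cases, and that of 1,25D replicate 2 stops on chromosome 16, which in these lists comes before chromosome 2. SLC8A1 was therefore covered by 5 lists and the other genes by 6, and the background for each gene was taken from the part of the genome that those lists cover. Ranks and percentiles of fold are within a list over that part, which held 28993 sites for the 6 lists and 23256 for the 5.

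The 4 genes differed in the kind of VDR site they held. SLC24A4 had a tight group of sites found after 1,25D and in no EtOH list. ATP2B1 had a site found in all 6 lists, with a higher fold after 1,25D. ITPR2 had a very strong site in all 6 lists past its end and a weaker one, mainly of the 1,25D lists, inside the gene. SLC8A1 had 11 sites, none of them in more than 1 of its 5 lists, against 8.11% of all sites there. With so few sites, a count of 0 is close to that share. In the 3 windows covered by all lists, 9 of 63 sites were in 2 or more lists, against 10.2% of all sites in that part, and 2 of 63 were in all 1,25D lists but in none from EtOH, against 1.7%. Another 2 were in all 6 lists, against 1.03%, and 5 in every 1,25D list whatever the EtOH lists held, against 4.2%.

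**Figure D1:**
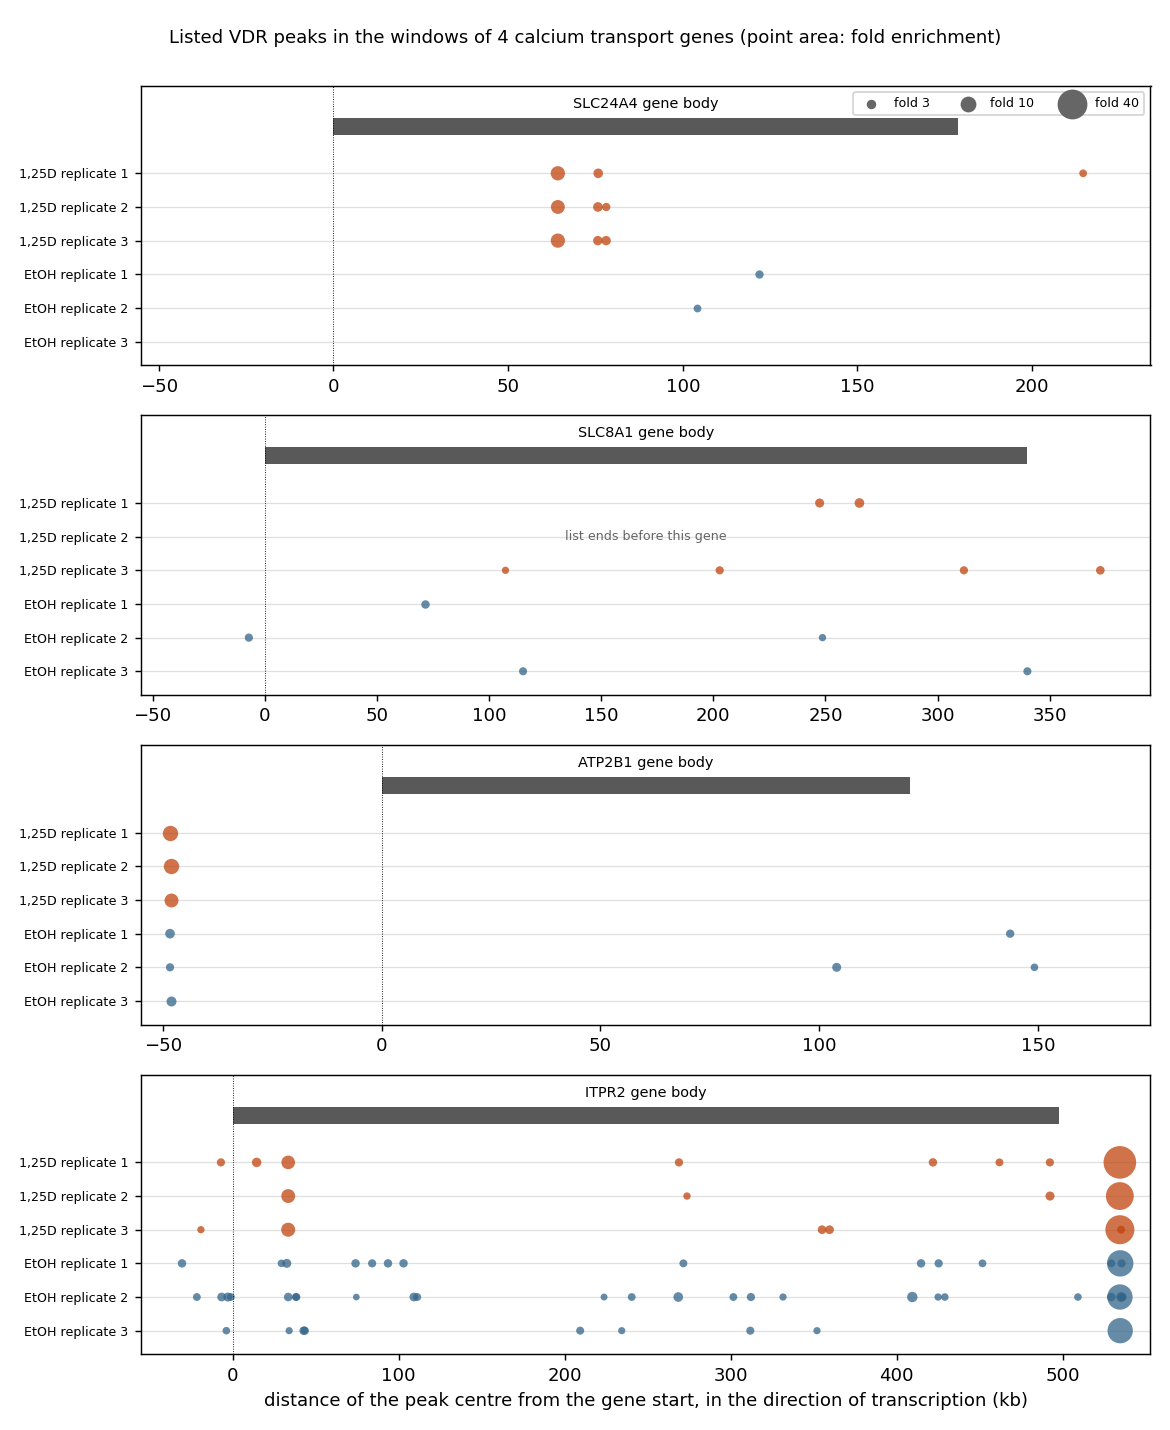
Position of every listed peak in the 4 windows, by list. The x axis is the distance of the peak centre from the gene start in kb, in the direction of transcription, the grey bar is the gene body, and point area is proportional to the fold enrichment. The 1,25D lists share 3 groups of points with a fold near 10 (SLC24A4, ATP2B1 and ITPR2), and the largest points, past the end of ITPR2, are in all 6 lists.

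SLC24A4 encodes NCKX4, an exchanger that carries calcium and potassium out of the cell in return for sodium. Its body lies on chromosome 14 at 92788925 to 92967825. The strongest site was inside the gene at 92852954 to 92853372, 64.2 kb from the start. Its fold was 10.4, 9.86 and 10.4 in 1,25D replicates 1 to 3, and no EtOH list had a peak there. The mean over the 1,25D lists was 10.2 ± 0.310 (SD, n = 3), with p-values of 3.5e-20, 3.25e-18 and 1.59e-19. The peak ranked 186 of 5203, 242 of 3647 and 230 of 4424 by fold in the 1,25D lists.

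The 3 libraries placed this peak at nearly the same bases. Its starts lay within 6 bp of each other and its ends within 3 bp, whereas the median range of starts was 109 bp (quartiles 63 and 161) over the 492 sites that every 1,25D list and no EtOH list holds. Its fold varied by 3.04% (coefficient of variation, SD over mean) between the 1,25D lists, against a median of 16.7% over the 492 sites. By mean percentile it ranked 9 among those 492, whose median fold was 4.86.

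A second such site followed at 92864383 to 92864891, 11011 bp further into the gene. Its fold was 4.71, 4.80 and 4.54 in 1,25D replicates 1 to 3, a mean of 4.68 ± 0.136 (SD, n = 3), and it ranked 220 among the 492. The start of this peak was less fixed, with a range of 209 bp. Another site began 1987 bp beyond it, at 92866878 to 92867155, with a fold of 3.53 in 1,25D replicate 2 and 4.53 in replicate 3 and no peak in 1,25D replicate 1 or in any EtOH list. The 3 sites spanned 14.2 kb. Of the 492 sites, 9.96% had another such site as near as the first 2 here, and the median distance to the nearest was 327 kb.

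The other 3 sites at SLC24A4 were each in a single list. A site past the gene end at 93003459 had a fold of 3.08 in 1,25D replicate 1. EtOH replicate 2 had a peak of fold 3.12 at 92893028 and EtOH replicate 1 a peak of fold 3.55 at 92910582, both in the gene body, and EtOH replicate 3 had none in the window. The window held 3 peaks in each 1,25D list, against 1, 1 and 0 in EtOH replicates 1 to 3. Per Mb this was 10.8 in each 1,25D list, against 3.59, 3.59 and 0 in the EtOH lists. Over chromosome 14 the 1,25D lists had 3.58 ± 0.658 peaks per Mb and the EtOH lists 6.27 ± 3.20 (mean ± SD, n = 3 each), so the order of the treatment means in this window was opposite to that over its chromosome.

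The sites elsewhere whose percentiles were most like those of the strongest SLC24A4 site, over 6 lists, began at 154453372 on chromosome 1, 96447905 on chromosome 12 and 31264953 on chromosome 16. The mean absolute difference in percentile was 0.348, 0.406 and 0.416 points. All were absent from the EtOH lists and had mean 1,25D folds of 10.3, 11 and 10.3.

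SLC8A1 encodes NCX1, a sodium/calcium exchanger prominent in heart muscle. Its body lies on chromosome 2 at 40339286 to 40679186. Its window held 11 sites, of which none was in 2 or more of the 5 lists, against 8.11% of the sites in the part these lists cover, where 91.9% were in 1 list. None was held by both 1,25D lists without an EtOH list, against 2.7%. None reached a fold of 5, which 5.59% of sites there did in at least 1 list. With 11 sites, counts of 0 are close to each of these shares, so they are not a trait of this gene. The folds ran from 2.73 to 4.81, with a median of 3.45.

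The strongest peak was in 1,25D replicate 1 at 40413974 to 40414121, with a fold of 4.81 and a p of 5.19e-07. This list had a further peak, of fold 4.21, at 40431720. The 4 peaks of 1,25D replicate 3 had folds of 3.81, 3.45, 3.45 and 2.73. The strongest EtOH peak was in replicate 1 at 40607538 to 40607713, with a fold of 3.67. EtOH replicate 2 had peaks of fold 2.77 and 3.46, and both peaks of EtOH replicate 3 had a fold of 3.36. No position was shared between these lists.

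These peaks were short, as were most peaks of these lists. Their median length was 147 bp, where the medians of the 5 lists were 147 to 190 bp. Of the 11, 7 were within 10 bp of the shortest peak of their list, as were 31.0% to 64.3% of all peaks per list. Every fold among them occurred again elsewhere in its list, as did 92.1% to 98.6% of folds in those 5 lists. For the strongest, 121 of 23245 other sites had exactly the same pattern, a fold of 4.81 in 1,25D replicate 1 and no peak elsewhere, so no site can be named as most like it. The window held 2 and 4 peaks in 1,25D replicates 1 and 3, against 1, 2 and 2 in EtOH replicates 1 to 3, and these ranges meet at 2.

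ATP2B1 encodes PMCA1, the widely expressed plasma membrane calcium pump. Its body lies on chromosome 12 at 89981828 to 90102608, on the reverse strand, so its start is at the higher coordinate. The site was on the start side at 90150486 to 90151205, 47.9 kb before the gene start. Its fold was 12.02, 12.1 and 9.91 in 1,25D replicates 1 to 3, against 4.76, 3.46 and 5.10 in EtOH replicates 1 to 3. The lowest 1,25D value was above the highest EtOH value. The 1,25D mean was 11.3 ± 1.23 and the EtOH mean 4.44 ± 0.864 (SD, n = 3 each).

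The ratio of these means was 2.55, against a median of 1.60 (quartiles 1.17 and 2.28) over the 298 sites found in all 6 lists, and 56 of the 298 had a ratio as high or higher. Folds of separately processed lists are on their own scales, and ranks within a list avoid this. Among the 298 sites the ATP2B1 site ranked 110 to 163 by 1,25D fold (mean 128) and 165 to 276 by EtOH fold (mean 209). Among these sites, all of its 1,25D ranks were thus above all of its EtOH ranks, as at 20.8% of the 298. The nearest ranks of the treatments were 163 (1,25D) and 165 (EtOH).

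The peak was also wider after 1,25D. It was 459, 711 and 572 bp long in 1,25D replicates 1 to 3, against 294, 148 and 311 bp in EtOH replicates 1 to 3, and all peaks of the EtOH lists lay within the span of the 1,25D peaks. Among all peaks it ranked 139 of 5203, 146 of 3647 and 256 of 4424 in 1,25D replicates 1 to 3, against 318 of 5251, 3823 of 11317 and 179 of 5722 in EtOH replicates 1 to 3. In EtOH replicate 2, the longest list, it had the shortest length that this list holds.

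No 1,25D list had any other peak in the ATP2B1 window, and none had a peak in the gene body. The other 3 sites were of EtOH lists only: a peak of fold 4.15 in the body at 89998508 (replicate 2), and peaks past the gene end of fold 2.95 at 89953294 (replicate 2) and 3.57 at 89958849 (replicate 1). The window edge matters here, since the site lay 1.403 kb inside it. The next site in 2 or more lists was 10.3 kb outside, at 90162935 to 90163281, with folds of 4.12 and 5.96 in 1,25D replicates 2 and 3 and no peak in the other lists. The site most like that of ATP2B1 was on chromosome 12 at 11899155 to 11900054, with mean folds of 7.82 ± 0.420 (1,25D) and 4.32 ± 0.747 (EtOH; SD, n = 3 each) and a mean percentile difference of 2.18 points. It was followed by chromosome 1 at 59942820 to 59943350 and at 27155028 to 27155789, with differences of 2.23 and 2.33 points.

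**Figure D2:**
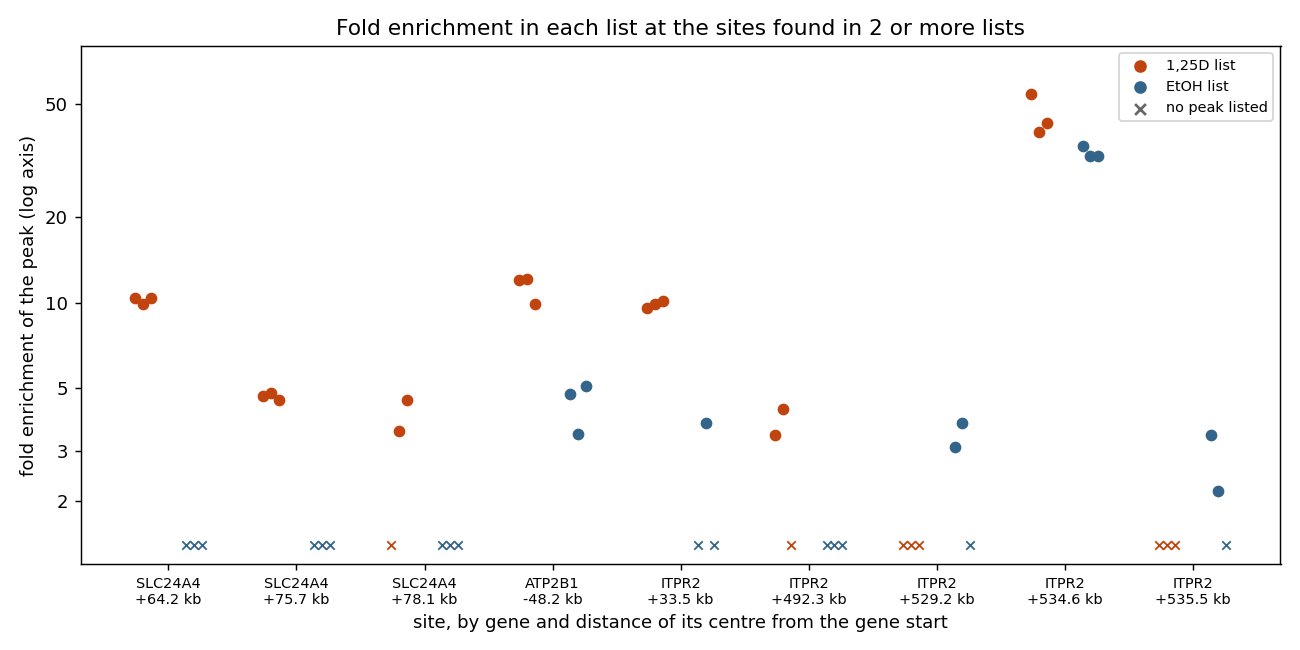
Fold enrichment in each list at the 9 sites found in 2 or more lists, named by gene and by the distance of the site centre from the gene start, on a log axis. Each point is a list, and crosses mark lists with no peak at the site. The sites of SLC24A4 at +64.2 kb, ATP2B1 at -48.2 kb and ITPR2 at +33.5 kb have similar 1,25D folds, with 0, 3 and 1 EtOH lists that hold a peak.

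ITPR2 encodes the type 2 inositol trisphosphate receptor, a calcium channel of the endoplasmic reticulum. It is the longest of the 4 genes, on chromosome 12 at 26488285 to 26986131, and also on the reverse strand. The site inside its body was at 26952344 to 26952994, with its nearer edge 33.1 kb from the start. Its fold was 9.55, 9.87 and 10.1 in 1,25D replicates 1 to 3. The only EtOH list with a peak there was replicate 2, with a fold of 3.78. The 1,25D mean was 9.84 ± 0.273 (SD, n = 3), and its coefficient of variation of 2.78% compares with a median of 15.8% over the 1217 sites found in all 1,25D lists. EtOH peaks of other libraries came close without touching it: replicate 3 had a peak 172 bp to the lower side and replicate 1 had one of fold 4.14 at 409 bp to the higher side.

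The SLC24A4, ATP2B1 and ITPR2 body sites were thus alike after 1,25D, with mean folds of 10.2, 11.3 and 9.84, and ranked 205, 162 and 222 among the 1217 sites. They differed in the EtOH lists, with a peak in 0, 3 and 1 of them. Sites of this strength were of all these kinds: of 121 sites with a mean 1,25D fold of 9 to 12, 12.4% were in no EtOH list, 19.0% in 1, 17.4% in 2 and 51.2% in all 3. The site most like the ITPR2 body site began at 36735117 on chromosome 11 and had a mean 1,25D fold of 11.4 and a single EtOH peak of fold 3.78.

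The strongest site of the 4 windows lay 36.0 kb past the end of ITPR2, at 26450856 to 26452271, on the side of SSPN, which is the next protein-coding gene there in RefSeq order. Its fold was 54.4, 39.7 and 43.0 in 1,25D replicates 1 to 3, against 35.7, 32.9 and 32.8 in EtOH replicates 1 to 3. It was among the top 3 peaks of every list, ranking 2, 2 and 3 among 1,25D replicates 1 to 3 and 3, 3 and 2 among EtOH replicates 1 to 3. The means were 45.7 ± 7.73 and 33.8 ± 1.62 (1,25D and EtOH, SD, n = 3 each), a ratio of 1.35, below the median of 1.60 over the sites of all 6 lists. Its place near the top of the lists was therefore similar with and without the hormone. The most similar sites were those on chromosome 1 at 119382943, chromosome 11 at 73966484 and chromosome 1 at 175489834, whose mean percentile differed by 0.0275, 0.0435 and 0.0495 points.

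The lower edge of this site differed between lists. The peak was 958, 1037 and 933 bp long in 1,25D replicates 1 to 3, against 1274, 908 and 1292 bp in EtOH replicates 1 to 3. In EtOH replicates 1 and 3 it began 337 and 335 bp before the earliest 1,25D start. The stretch in front was called as a peak of its own in 1,25D replicate 3 (fold 3.23) and EtOH replicate 2 (fold 4.89). A further site, 59 bp away at 26450395 to 26450797, was in EtOH replicates 1 and 2 with folds of 3.43 and 2.17 and in no 1,25D list. The mean length was 976 ± 54.3 bp after 1,25D and 1158 ± 217 bp after EtOH (SD, n = 3 each), and these ranges overlap.

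ITPR2 had another pair of sites in 2 lists. That at 26493734 to 26493976, just inside the gene end, was in 1,25D replicates 1 and 2 with folds of 3.43 and 4.23. That at 26456828 to 26457094, past the gene end, was in EtOH replicates 1 and 2 with folds of 3.10 and 3.78. Sites of 2 or more 1,25D lists without EtOH were thus 1 of the 53 in this window, against 3.89% over all sites, and sites of 2 or more EtOH lists without 1,25D were 2 of 53, against 1.05%.

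The remaining 48 sites of the ITPR2 window were in a single list, against 89.8% of all sites. The 1,25D lists held 9 of them and the EtOH lists 39. EtOH replicate 2 alone gave 20. The EtOH lists were also longer over this part of the genome. They had 5251, 11317 and 5722 peaks there in replicates 1 to 3, against 5203, 3647 and 4424 in the 1,25D lists. The same split over all single-list sites is not given here. The folds at the 48 sites ran from 2.30 to 5.54 with a median of 3.33. The value of 5.54 was a peak of EtOH replicate 2 at 26576623. Their median length was 150.5 bp. Over all 4 windows, 37 of the 65 peaks at single-list sites were within 10 bp of the shortest in their list, against 2 of the 32 peaks at sites in 2 or more lists. Over whole lists this share was 23.0% to 48.7% after 1,25D and 45.6% to 64.3% after EtOH, so the single-list peaks had about the lengths of their lists at large.

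**Figure D3:**
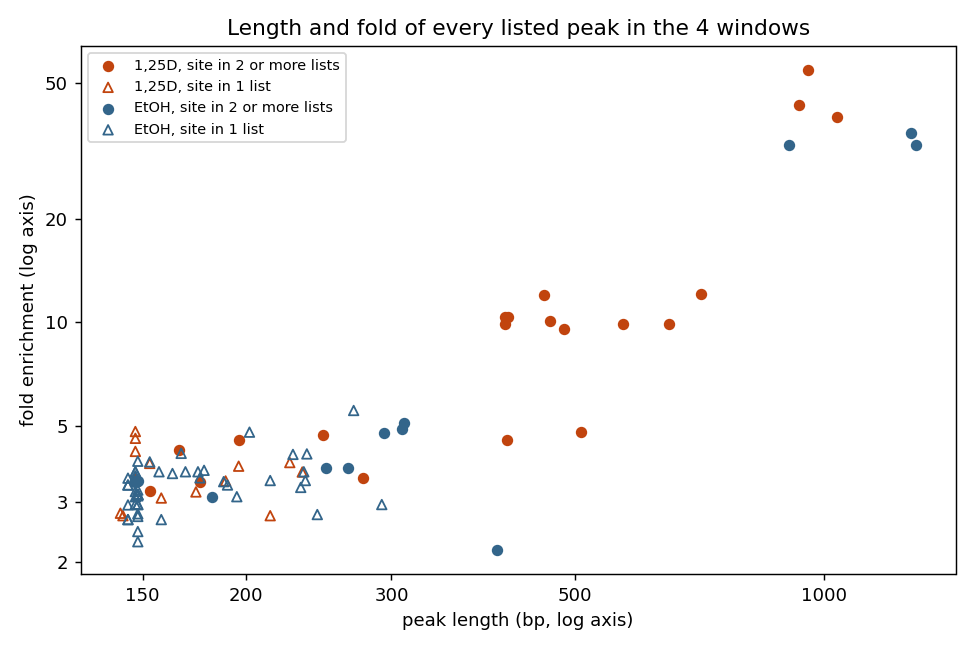
Length in bp against fold enrichment, both on log axes, for every listed peak in the 4 windows. Filled points are peaks at sites in 2 or more lists and open triangles are peaks at sites in 1 list. Single-list peaks are 141 to 292 bp long with a fold of at most 5.54, and the peaks near or above a fold of 10 are at least 412 bp long.

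Listed peaks of all kinds were dense at ITPR2. The window held 8, 4 and 6 peaks in 1,25D replicates 1 to 3, against 14, 25 and 9 in EtOH replicates 1 to 3. Per Mb this was 13.4, 6.69 and 10.0 in the 1,25D lists, where chromosome 12 as a whole had 4.17, 3.40 and 4.54. In the EtOH lists it was 23.4, 41.8 and 15.1, where chromosome 12 had 4.05, 10.2 and 4.80. Every list was thus denser in this window than over the chromosome, and every EtOH list had more peaks per Mb here than any 1,25D list. At ATP2B1, on the same chromosome, the window had 4.53 peaks per Mb in each 1,25D list, against 9.06, 13.6 and 4.53 in the EtOH lists.

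The dense stretch was wider than the gene. In the 1 Mb bin that holds the ITPR2 body (26 to 27 Mb of chromosome 12) there were 15, 5 and 7 peaks in the 1,25D lists, against 18, 40 and 13 in the EtOH lists. Of 130 such bins on the chromosome it ranked 2, 25 and 25 by peak number after 1,25D and 2, 1 and 11 after EtOH. The bins from 22 to 31 Mb averaged 6 to 14 peaks per 1,25D list and 15 to 23.7 per EtOH list, against medians per list of 3 to 4 and 3 to 9 over the chromosome. Whether DNA copy number or chromatin state moves with this density was not tested.

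**Figure D4:**
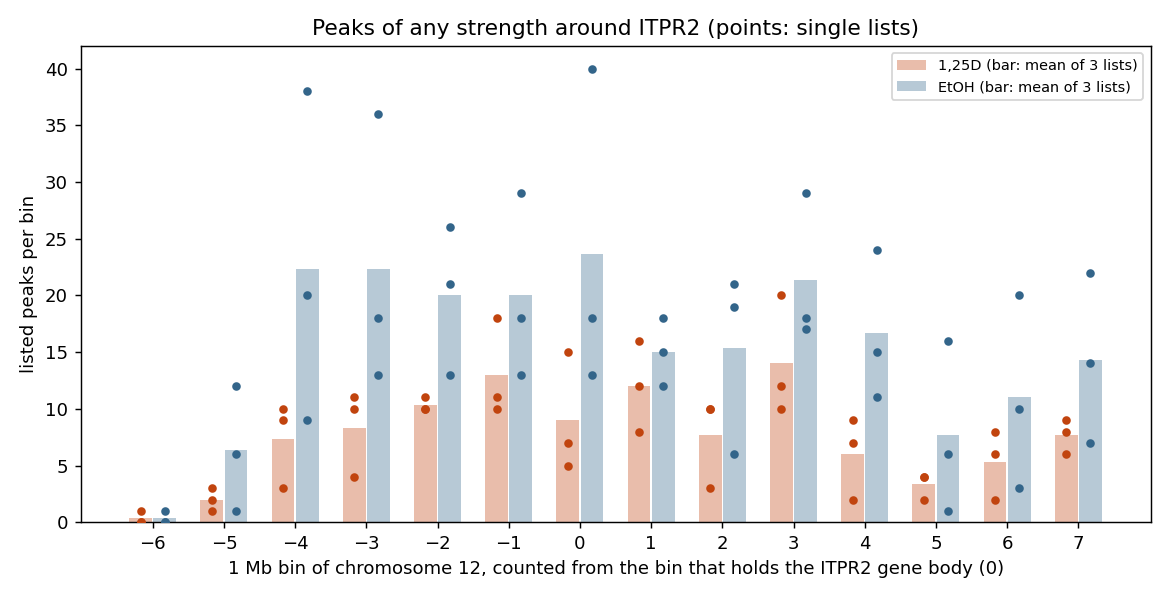
Listed peaks of any strength in 1 Mb bins of chromosome 12 around ITPR2. The x axis counts bins from the bin that holds the gene body, bars are means of 3 lists and points are single lists. The bins next to bin 0 average 12 to 13 peaks per 1,25D list and 15 to 20 per EtOH list. The outermost bin on the left averages 0.333 in each treatment, and that on the right 7.67 (1,25D) and 14.3 (EtOH). The highest point is EtOH replicate 2 in bin 0, with 40 peaks.

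Over the 4 windows together, strong peaks were more numerous in the 1,25D lists, and peaks of any strength showed no order beyond the spread between lists. Summed over the windows as means of the covering lists, there were 4 peaks with a fold of 5 or more per 1,25D list and 1.67 per EtOH list. The ratio was 2.4 ± 0.831. The SD of this and the next ratio is from the spread between lists over the windows that all 6 lists cover, so it leaves out SLC8A1. Peaks of any strength numbered 13.0 per 1,25D list and 20.3 per EtOH list, a ratio of 0.639 ± 0.353. Replicates 3 ran the other way, with 14 peaks in the 1,25D list and 12 in the EtOH list. ITPR2 supplied 6 of the 13.0 and 16 of the 20.3. The second ratio was 0.867 without EtOH replicate 2 and 1.06 when all lists were held to equal length. A fold of 5 or more in at least 1 list was reached by 5 of the 63 sites in the windows covered by all lists, against 4.56% of all sites. These shares are not split by treatment, and the ratio of strong peaks over whole lists is not given here. The genes were also chosen by the fold and treatment of these peaks. The ratio of 2.4 is therefore not shown to be particular to these windows.

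No site in 2 or more lists lay at the start of any of the 4 genes. The nearest peaks of any list were 64.2 kb into SLC24A4, 48.2 kb before ATP2B1, 1.08 kb before ITPR2 (EtOH replicate 2 only, fold 3.15) and 7.07 kb before SLC8A1 (EtOH replicate 2 only, fold 3.46), measured to the peak centre. No exon annotation of hg19 was used here, so whether the sites within SLC24A4 and ITPR2 are in an intron or an exon is not given. A site in a gene's window need not act on that gene.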

How the data were processed

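ChIPmentation with an antibody against VDR was done on THP-1 cells, 3 libraries per treatment, beside 1 input library not analysed here. The submitters' processing notes name Bowtie 1.1, MACS2 and the build hg19 (GRCh37). For MACS2, settings and any use of the input are not given in the sources used. Per the file headers, each deposited list gives per peak a fold enrichment, a ratio over the caller's background by the authors, and a p-value. Lists ended at a highest p of 0.00433 (1,25D replicate 1), 0.00431 (EtOH replicate 1) or 0.00978 to 0.00997 (the rest). Whether starts count from 0 or 1 is not stated, so coordinates are as listed.

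Peaks sharing at least 1 bp were merged, and a list's highest fold at a site was used (Python 3.11.15, numpy 2.4.6). Merging was run on simulated lists of well separated sites with a single peak per list, and returned 3000 of 3000 sites. Close neighbours and several peaks of a list at a site, both found at ITPR2, were not simulated. The run therefore checks simple cases only. Gene bodies came with the choice of genes. The strand was from RefSeq, whose table is of GRCh38 and gave no coordinates here (the strand of ITPR2 is background knowledge). Named were sites in 2 or more lists, the strongest peak per treatment, and the 3 sites most alike by mean absolute percentile difference. The genes, sites and lists were chosen with earlier results of these data known. The comparison with the ITPR2 body site, the bins, the band of fold 9 to 12 and the peak lengths were added once values had been seen. The peaks' DNA sequence and other calcium genes were not used here, since both need hg19. Columns of other samples used numbered 0.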

Additional observations from a re-analysis of the deposited data

How the results depend on the processing

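Of 126 values under other settings, 111 moved by less than the spread between lists or, for counts, by at most 1.5 times. Some could not move under their setting, such as the 1,25D folds with an EtOH list left out. Another was the ratio at a fold of 5 or more under that same limit. The 111 is therefore not a measure of stability. The number of sites in every 1,25D and no EtOH list was 2 with other flanks, overlaps, list lengths and highest p. It was also 2 among peaks of fold 5 or more, though there the ITPR2 body site took the place of the second SLC24A4 site. It was 7 without 1,25D replicate 1 (2 to 7 over all left-out lists) and 7 with both replicates 1 left out, of which 4 are SLC8A1 peaks of the only 1,25D list then left there. The number in every list was 0 for gene bodies alone, where the outer sites of ATP2B1 and ITPR2 drop out, and 1 under equal list length or the fold limit of 5. Sites in any list numbered 5 at a fold of 5 or more, 42 at equal list length and 49 to 73 with a list left out, the lowest without EtOH replicate 2. The ratio of all peaks turned round under equal list length (1.06) and when weaker peaks than fold 5 were dropped (2.4). It was 0.531 to 0.867 with a list left out. The ratio at a fold of 5 or more was 6.0 for gene bodies alone and 2.00 to 2.67 with a list left out. The strongest ITPR2 fold was 9.84 for the body alone. That of SLC8A1 was 3.81 both without 1,25D replicate 1 and with both replicates 1 left out, where another peak is the strongest, against 4.81 without any other list. With the replicate number as a block, the geometric mean of the ratios within a number was 0.630 for all peaks and 2.52 at a fold of 5 or more. Same-numbered lists did not deviate together: correlations over the 298 sites of all lists were 0.0895, -0.00461 and -0.0235, so the numbers were not taken as pairs. Depth is unknown, which limits what a missing weak peak can show.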
